A study of Rattus norvegicus with 6 samples.

Results

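The Krüppel-like factors are transcription factors of the zinc finger class that bind GC-rich and CACCC sequences in promoters and enhancers. In vessels they are known as sensors of flow, injury and metabolic state: Klf2 and Klf4 keep the endothelium quiet under laminar flow, Klf4 and Klf5 take smooth muscle cells away from the contractile state, and Klf15 controls amino acid and glucose use. The genes described here were 10 members of the family, Klf2, Klf3, Klf4, Klf5, Klf6, Klf7, Klf10, Klf12, Klf13 and Klf15, chosen by symbol from the 24005 genes of the deposited table.

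RNA-seq was performed on aorta taken from rats with kidney failure, with 3 libraries of an engineered exosome group and 3 of a saline group. Exosomes are small vesicles that cells release, and the engineered ones are called ANCR/E7-EXO in the labels, where ANCR is a long non-coding RNA. They were injected into the tail vein at 10 mg/kg, once every 5 days, while control rats received an equal volume of saline over 13 weeks. Both groups had a subtotal nephrectomy on the left and then removal of the right kidney, and both ate a diet with 1.2% phosphorus that speeds calcification. The labels give no strain or age, and neither rats with intact kidneys nor rats given unmodified exosomes are among these samples. Whether every library is from its own animal is not stated, so the p-values speak only of the spread among these 6 libraries, which may be technical.

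Library totals implied by the values ranged from 28063355 to 44561082 reads or read pairs. Values are FPKM, reads scaled to gene length and library total. Levels of different genes are set side by side on this scale, which depends on gene models that the sources do not give. The libraries held the markers of an artery wall: Acta2 stood between 4584 and 9086 FPKM, and the summed level of 8 endothelial markers between 92.5 and 191.2 FPKM. Of 6 skeletal muscle markers, Myh4 was at 0 in all 6 libraries, and Myh1 and Myh2 were at most 0.109 FPKM. Acta1 (17.4 to 39.1 FPKM), Tnnt3 (13.56 to 24.25 FPKM) and Ckm (6.44 to 12.4 FPKM) stood higher. The sum of the 6 was 46.5 to 65.3 FPKM, and 5 T cell markers summed to 0.744 to 2.53 FPKM. Macrophage markers (Cd68, Cd163, Mrc1, Csf1r, C1qa and Adgre1) were higher with exosomes in 6 of 6 cases, against 39.3% of all tested genes. They were also higher after rescaling to the same sum or the median of ratios and after quantile normalization. Groups were apart for 4 of the 6, against 9.40% of all tested genes in the higher direction. These markers summed to 62.9 to 72.5 FPKM with saline and 89.6 to 106.6 FPKM with exosomes. Of these, Cd163 ranked 4 by p among all tested genes (log2 difference 1.09, adjusted p = 0.143 in limma).

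All 10 members were detected, over a wide range of levels. Klf6 was the most abundant at 96.99 ± 52.2 FPKM (mean ± SD over all 6 libraries), and its lowest library lay above the highest library of the next member, Klf2 (38.8 ± 6.91 FPKM). Klf15 (28.9 ± 11.9 FPKM), Klf4 (21.1 ± 4.50 FPKM), Klf3 (13.7 ± 3.21 FPKM) and Klf7 (10.3 ± 0.696 FPKM) came next, followed by Klf13 (7.71 ± 2.69 FPKM), Klf12 (4.87 ± 1.28 FPKM) and Klf10 (3.75 ± 1.83 FPKM). From Klf2 down to Klf10 the ranges of neighbours in this order overlapped. Klf5 was last at 0.271 ± 0.144 FPKM, with a range well apart from that of Klf10. The members also differed in steadiness: Klf7 varied 1.23-fold between its lowest and highest library, Klf2 1.60-fold, Klf6 2.96-fold and Klf10 3.46-fold. Saline 1 was the lowest library for Klf2, Klf3, Klf4, Klf5, Klf12 and Klf13, and the summed FPKM of the 10 members was 163.4 there, against 187.6 to 312.5 in the other 5 libraries.

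**Figure D1:**
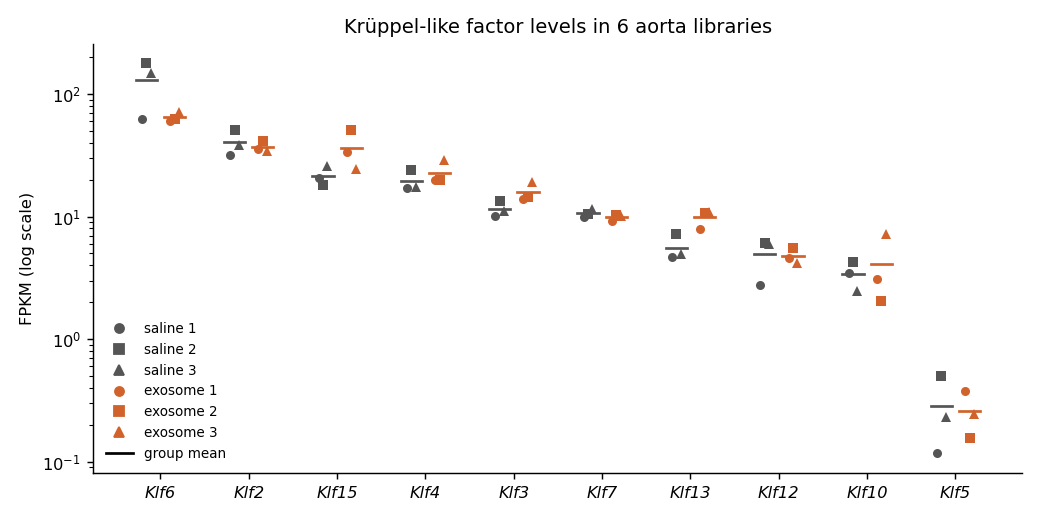
FPKM of the 10 Krüppel-like factors on a log axis, with 1 point per library, grey for saline and orange for exosome, and bars at the group means. Klf6 stands at the top (60.0 to 177.4 FPKM) and Klf5 at the bottom (0.117 to 0.499 FPKM), and the groups are apart for Klf13 and Klf3 alone.

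Between treatments, no member passed the adjusted threshold. Of the 10 members, 9 had a mean of at least 1 FPKM and were tested with limma on log2(FPKM + 1), while Klf5 was too low. At a Benjamini-Hochberg adjusted p under 0.05, 0 of 9 were called, where 0.00852% of the 11742 genes tested were (1 gene). At an unadjusted p under 0.05, Klf3, Klf13 and Klf15 were higher with exosomes (3 of 9, against 6.75% of all genes) and Klf6 was lower (1 of 9, against 9.24%). With any single library left out, 1 or 2 members were higher at that level (1 without saline 1, Klf13), and Klf6 stayed lower at that level without saline 1 alone. The groups did not overlap for Klf3 and Klf13, both higher (2 of 9, against 9.40% of all genes), and for none in the lower direction (0 of 9, against 11.7%). In either direction 21.1% of all genes had groups apart, so a share of 2 in 9 is near the background. The median log2 difference of the 9 was 0.11, where that of all genes was -0.073.

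**Figure D2:**
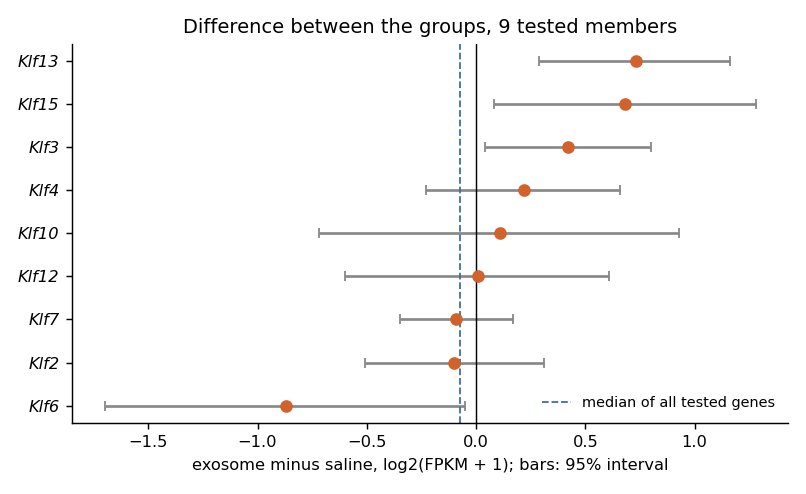
Difference between exosome and saline libraries on the log2(FPKM + 1) scale for the 9 tested members, with 95% intervals from limma that are not adjusted for multiple testing, and a dashed line at the median of all genes (-0.073). The intervals of Klf13, Klf15 and Klf3 lie above 0 and that of Klf6 below it, and those of the other members span 0.

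Klf2, the flow-induced factor of endothelium, stood at 31.99, 51.2 and 38.3 FPKM in saline 1, 2 and 3 and at 35.2, 41.6 and 34.5 FPKM in exosome 1, 2 and 3. The exosome libraries all lay inside the saline range. Its log2 difference was -0.10 (95% interval -0.51 to 0.31), with an adjusted p of 0.778, and the sign turned without saline 2 (0.08). Klf4, which flow induces in endothelium and which in smooth muscle represses contractile genes, stood at 17.0, 23.9 and 17.3 FPKM with saline and at 19.7, 19.9 and 28.8 FPKM with exosomes. Exosome 3 was the highest library and the groups overlapped. The difference was 0.22 (interval -0.23 to 0.66), and it was 0.04 without exosome 3.

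In whole tissue, fewer cells of a type and less RNA per cell cannot be told apart. The summed FPKM of 8 endothelial markers (Pecam1, Cdh5, Vwf, Tie1, Emcn, Egfl7, Esam and Kdr) was 92.5 to 132.1 with saline and 134.0 to 191.2 with exosomes, so the groups were apart. Of the 8 markers 6 were higher and 2 lower (7 and 1 after rescaling to the median of ratios, which turned Egfl7), and none passed the adjusted threshold. Set against this sum, the Klf2 level was 0.299, 0.387 and 0.414 in saline 1, 2 and 3 and 0.263, 0.218 and 0.242 in exosome 1, 2 and 3. All 3 exosome libraries lay below all 3 saline libraries, although Klf2 itself overlapped. As the sum was higher and apart with exosomes, a gene that is level between groups can give such a ratio. How many of all genes do so was not tested. The log2 ratio differed by -0.60, with a two-sided exact permutation p of 0.1, the smallest that 3 against 3 allows. Against single markers, Klf2 was lower with groups apart for 5 of the 8 (Pecam1, Cdh5, Vwf, Tie1 and Esam), at -0.93 for Vwf to -0.36 for Cdh5. It overlapped for Emcn (-0.35), Egfl7 (-0.03) and Kdr (0.28). Pecam1, Vwf and Esam were themselves higher with groups apart, while Cdh5 (log2 difference 0.23) and Tie1 (0.24) overlapped. These ratios share the same Klf2 values, so they are not separate results. How many of all genes give such ratios to single markers was not tested either. Pecam1 and Vwf were the most abundant of the 8 in most libraries. Without them the marker sum overlapped between groups (53.8, 77.9 and 51.5 FPKM with saline and 64.6, 73.2 and 73.1 FPKM with exosomes). All exosome libraries of this sum still lay above saline 1 and 3, so a level gene can give a lower ratio here too. The Klf2 ratio to it differed by -0.33, with groups apart and an exact permutation p of 0.1. This denominator and the single markers other than Pecam1 and Cdh5 were added after the data were seen. Klf4 per endothelial marker level was 0.176 ± 0.0145 with saline and 0.151 ± 0.0490 with exosomes (mean ± SD, n = 3 each; exact permutation p = 0.5), and the groups overlapped. Against the sum without Pecam1 and Vwf the Klf4 difference was 0.00, and against Kdr alone it was 0.61 with groups apart. The ratio takes in Klf2 and Klf4 transcripts of other cell types as well, whose part was not tested.

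**Figure D3:**
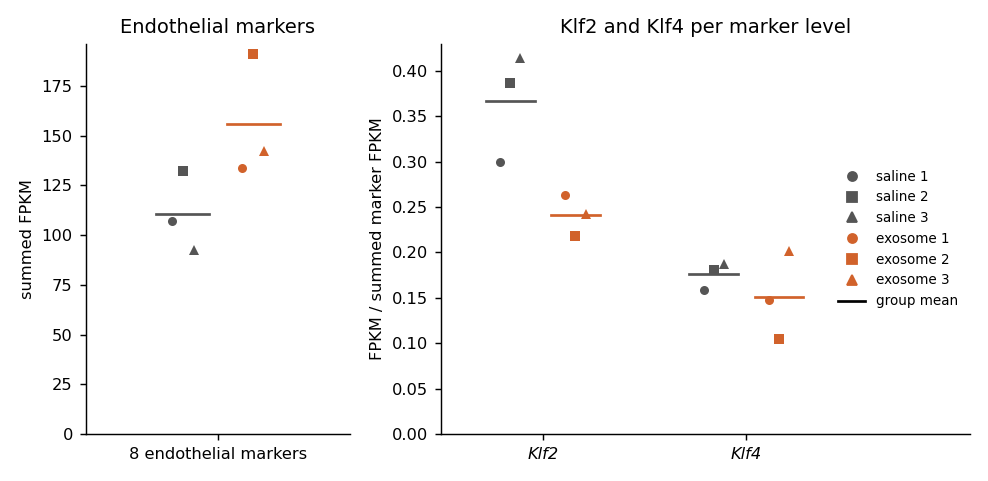
Left, summed FPKM of 8 endothelial markers by library, itself higher in the exosome group with groups apart. Right, Klf2 and Klf4 FPKM divided by that sum, with grey for saline, orange for exosome and bars at group means: the Klf2 ratio is 0.299 to 0.414 with saline and 0.218 to 0.263 with exosomes, while the Klf4 groups overlap.

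Genes known to lie downstream of Klf2 and Klf4 in endothelium did not share a direction. Of 8 genes known as induced targets 5 were higher and 3 lower, and none passed the adjusted threshold. Nos3, the endothelial nitric oxide synthase, stood at 6.09, 6.87 and 4.72 FPKM with saline and 9.49, 12.9 and 11.9 FPKM with exosomes. The log2 difference of Nos3 was 0.86, with an adjusted p of 0.237 in limma. Thrombomodulin (Thbd), the anticoagulant receptor, stood at 59.6, 81.4 and 81.1 FPKM with saline and 57.9, 59.98 and 63.3 FPKM with exosomes. Ptgds, a prostaglandin D2 synthase, stood at 11.5, 2.84 and 6.04 FPKM with saline and 0.958, 0.610 and 1.30 FPKM with exosomes. Its log2 difference was -1.85, with an adjusted p of 0.247, and its lowest library held 13 reads. The Nos3 and Ptgds groups were thus apart in opposite directions, and the Thbd groups overlapped. Among genes that these factors are known to restrain, the log2 difference was 0.27 for Edn1 (endothelin), 0.06 for F3 (tissue factor) and -0.20 for the adhesion molecule Vcam1, each with overlapping groups, and Sele was below the minimum level.

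Upstream, Klf2 and Klf4 are known to be switched on by a kinase cascade that ends in the MEF2 factors and that the cerebral cavernous malformation proteins restrain. Of 11 tested genes of this pathway 8 were higher and 3 lower, where 39.3% of all genes were higher. Under each rescaling Pdcd10 turned, which gave 9 and 2. The median log2 difference was 0.23, against -0.073 for all genes, and none passed the adjusted threshold. Mef2d, one of the MEF2 transcription factors, stood at 35.5, 36.0 and 34.8 FPKM with saline and 39.8, 45.9 and 43.1 FPKM with exosomes. Ccm2, a scaffold that holds the cascade back, stood at 13.1, 9.30 and 10.5 FPKM with saline and 15.3, 15.5 and 18.9 FPKM with exosomes. Both had groups apart, with adjusted p of 0.287 and 0.255 in limma. They were 2 of the 11, against 9.40% of all genes in the higher direction. Heg1, the receptor that anchors this complex, had a log2 difference of 0.49 with overlapping groups. Mapk7, which encodes the kinase ERK5, was listed at 0 in all 6 libraries. The gene model behind that value is not given, so it need not mean that the RNA was absent.

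In smooth muscle, Klf4 is known to restrain contractile genes. Of 6 such genes 4 were higher and 2 lower. Only Myocd had groups apart, at 15.2, 14.3 and 21.3 FPKM with saline and 38.6, 30.9 and 30.04 FPKM with exosomes (adjusted p = 0.237). Acta2 and Cnn1 varied together over libraries of both groups, with saline 1, exosome 1 and exosome 3 high, while Klf4 was highest in exosome 3 and lowest in saline 1.

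Klf5, known to drive growth of smooth muscle cells after injury, was nearly silent. It had 9 to 34 reads per library and stood at 0.117, 0.499 and 0.230 FPKM with saline and 0.380, 0.155 and 0.244 FPKM with exosomes. The groups overlapped, and when genes of any level were tested the log2 difference was -0.02 with an adjusted p of 0.956. Of 3 genes known as Klf5 targets, Myh10, the non-muscle myosin of modulated smooth muscle (log2 difference 0.28), and Pdgfa (0.26) were higher and Ccnd1 (-0.35) was lower, each with overlapping groups.

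Klf6, an early response factor of injured vessels and liver, had the lowest log2 difference of the tested members. It stood at 62.7, 177.4 and 149.0 FPKM in saline 1, 2 and 3 and at 60.0, 62.1 and 70.8 FPKM in exosome 1, 2 and 3. Saline 2 and 3 lay far above the other 4 libraries, and saline 1 lay within the exosome range. The log2 difference was -0.87 (interval -1.70 to -0.05), with a standard error of 0.35 and an adjusted p of 0.304. Without saline 1 it was -1.33 with an adjusted p of 0.0429, in a fit that called 9 genes (0.0766% of those tested). The coefficient of variation of Klf6 was 46.1% among saline libraries and 8.86% among exosome libraries.

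Early response genes did not share 1 order of the saline libraries. Of 13 listed, 5 were higher in saline 2 and 3 than in saline 1, as Klf6 was, and in 8 saline 2 was the lowest of the saline libraries. Of the first kind, 2 genes picked for their likeness to Klf6 are shown. Jun, an AP-1 subunit, stood at 74.3, 252.3 and 286.6 FPKM with saline and 57.8, 53.2 and 54.96 FPKM with exosomes. Atf3, a stress-induced factor of the ATF family, stood at 8.10, 170.6 and 134.1 FPKM with saline and 6.60, 8.14 and 7.80 FPKM with exosomes. Saline 1 lay near the exosome libraries for both. Of the other kind, Egr3, an early growth response factor, had the smallest p of the list and stood at 8.77, 8.39 and 12.3 FPKM with saline and 2.40, 1.06 and 5.03 FPKM with exosomes, and Fos, an AP-1 subunit, stood at 78.4, 48.4 and 115.8 FPKM with saline and 8.06, 30.8 and 44.7 FPKM with exosomes. The groups were apart for both. Over 13 early response genes, which also respond to the handling of tissue, the summed FPKM was 906.7, 1106 and 1580 with saline and 498.8, 581.0 and 914.4 with exosomes. Of the 12 tested 10 were lower, as were 60.7% of all genes. Groups were apart in the lower direction for 3 of the 12, against 11.7% of all genes. The part of handling in the Klf6 values was not tested. Among all tested genes, those most like Klf6 over the 6 libraries were Slc22a2, Prps2 and Arid5a, with a mean absolute difference of 0.106, 0.110 and 0.143 log2 units between centred values.

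**Figure D4:**
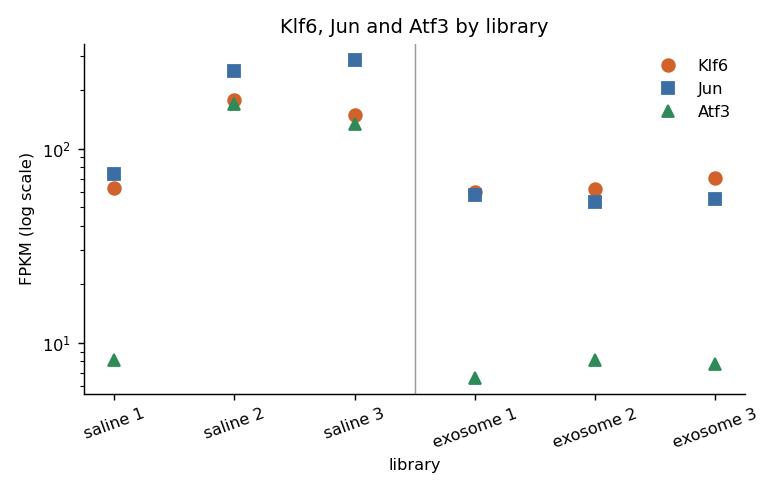
FPKM of Klf6, Jun and Atf3 in each library on a log axis, with saline to the left of the grey line and exosome to the right. All 3 genes are high in saline 2 and 3 (Klf6 177.4 and 149.0 FPKM), while saline 1 lies at the level of the exosome libraries or close to it.

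Promoter sequences were at hand from RefSeq (build GRCr8) for 7 of the 10 members and not for Klf2, Klf10 and Klf13. The 250 bases before the start of Klf6 (chr17:69458479-69458728, minus strand) and of Klf5 (chr15:82471831-82472080, plus strand) are printed, since these are the most and the least abundant members. Capitals mark 5 motifs on either strand: the CCAAT box, the E-box spelled CACGTG, the GC box spelled GGGCGG, the CACCC box that the family itself binds, and the core TGACG of cAMP response elements.
Klf6: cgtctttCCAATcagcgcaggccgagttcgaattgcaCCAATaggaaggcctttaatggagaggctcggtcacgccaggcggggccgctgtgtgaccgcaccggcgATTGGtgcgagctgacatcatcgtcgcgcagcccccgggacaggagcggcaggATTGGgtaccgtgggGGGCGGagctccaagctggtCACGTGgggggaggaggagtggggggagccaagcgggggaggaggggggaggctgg
Klf5: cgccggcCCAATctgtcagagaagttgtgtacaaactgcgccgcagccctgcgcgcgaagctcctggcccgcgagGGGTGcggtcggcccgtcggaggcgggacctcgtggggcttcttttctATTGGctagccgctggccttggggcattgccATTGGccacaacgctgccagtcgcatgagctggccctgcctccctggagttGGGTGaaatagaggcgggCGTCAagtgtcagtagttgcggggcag
Both windows are rich in G and C (67.2% for Klf6 and 65.2% for Klf5) and hold CCAAT, 4 times in Klf6 and 3 times in Klf5. The E-box and the GC box are in the Klf6 window and CACCC and TGACG are in the Klf5 window. CACCC was found in 4 of the 7 member windows and in 49.4% of 27457 promoters of this length, and CCAAT in 4 of 7 and 34.3%. GGGCGG was found in 2 of 7 and 32.4%, TGACG in 2 of 7 and 19.0%, and CACGTG in 2 of 7 and 5.8%. The AP-1 motif TGANTCA (6.4% of promoters) and the MEF2 motif (3.4%) were in 0 of 7.

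Klf10, induced early by TGF-beta and known as its transcriptional amplifier, stood at 3.45, 4.28 and 2.47 FPKM with saline and 3.08, 2.06 and 7.14 FPKM with exosomes. Exosome 3 was the highest and exosome 2 the lowest of all libraries, and the log2 difference of 0.11 (interval -0.72 to 0.93) turned to -0.29 without exosome 3. Of 8 genes linked to Klf6 or Klf10 in TGF-beta signalling 5 were higher and 3 lower (median 0.11), and none passed. Smad7, the inhibitory Smad that Klf10 is known to repress, stood at 11.9, 18.1 and 12.4 FPKM with saline and 26.3, 25.3 and 35.9 FPKM with exosomes (adjusted p = 0.237), with groups apart. Tgfb1, the ligand, was 27.3 to 30.2 FPKM with saline and 31.4 to 39.7 FPKM with exosomes, and Smad2, a receptor-activated Smad, was 10.9 to 12.3 FPKM with saline and 12.8 to 16.1 FPKM with exosomes. Their groups were apart as well, so 3 of the 8 were apart in the higher direction, against 9.40% of all genes.

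Klf15, a metabolic factor that glucocorticoids induce and that is high in muscle and fat, was higher in most exosome libraries. It stood at 20.5, 18.1 and 26.1 FPKM with saline and 33.6, 50.7 and 24.6 FPKM with exosomes. Exosome 3 lay below saline 3, so the groups overlapped. The log2 difference was 0.68 (interval 0.08 to 1.28), with a standard error of 0.26 and an adjusted p of 0.291, and it was 0.41 without exosome 2 and 0.92 without exosome 3. The genes closest to it over the 6 libraries were C1ql3, Oas1k and Hhip, at a mean absolute difference of 0.0877, 0.0928 and 0.130 log2 units. No other member was near it: the closest, Klf2, was at 0.391.

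Of 6 listed metabolic genes known as Klf15 targets, 4 were tested, and none passed the adjusted threshold. The log2 differences of all 4 were negative, as were those of 60.7% of all genes, and their median was -0.68 against -0.073. Groups were apart in the lower direction for 2 of the 4, against 11.7% of all genes. Of the other 2, Tat was listed at 0 in all libraries, and Kcnip2, a potassium channel subunit, was too low to be tested (at most 0.250 FPKM), with a log2 difference of 0.12 when genes of any level were fitted. Slc2a4, the insulin-responsive glucose transporter, stood at 48.4, 44.2 and 43.3 FPKM with saline and 34.9, 29.4 and 18.5 FPKM with exosomes (log2 difference -0.74, adjusted p = 0.261). Gpt, an alanine aminotransferase, stood at 8.30, 19.9 and 15.2 FPKM with saline and 7.74, 7.66 and 6.61 FPKM with exosomes (log2 difference -0.82, adjusted p = 0.281). The groups were apart for both. Prodh, proline dehydrogenase, had a log2 difference of -0.62 and Bcat2, the branched-chain aminotransferase, of -0.48, with overlapping groups. Exosome 3 had the lowest Slc2a4, Gpt, Prodh and Bcat2 and the lowest Klf15 of the exosome group. The summed FPKM of 6 fat cell markers was 318.1, 1099 and 352.4 with saline and 355.9, 627.3 and 413.9 with exosomes, overlapping between groups. Most of this sum is Fabp4. Each of the 6 markers had a negative log2 difference (median -0.42), 2 of which, Cidec and Fabp4, turned after rescaling to the median of ratios, and all 6 overlapped. The part of perivascular fat in these values was not tested.

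Klf15 and Klf6 were the members whose promoter windows held an E-box, the motif bound by clock factors and MYC, shown in capitals within 30 bases of each (chr4:124522902-124522931, plus strand, and chr17:69458517-69458546, minus strand).
Klf15: cgcccgcggcgtCACGTGagcggtcggaga
Klf6: ctccaagctggtCACGTGgggggaggagga
The motif begins 101 bases before the start of Klf15 and 56 before that of Klf6. In Klf15 it shares bases with a TGACG match on the other strand. The values of these genes went apart by library: saline 2 was the highest for Klf6 and the lowest for Klf15.

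Klf13, a repressor that recruits the Sin3 complex and is known for control of chemokine genes in T cells, had the smallest unadjusted p of the 10 members. It stood at 4.65, 7.17 and 4.93 FPKM with saline and 7.97, 10.7 and 10.8 FPKM with exosomes. The lowest exosome library lay above the highest saline library, and the means were 5.58 ± 1.38 and 9.83 ± 1.61 FPKM (SD, n = 3 each), a ratio of 1.76. The log2 difference was 0.73 with a standard error of 0.19 (interval 0.29 to 1.16), and its adjusted p of 0.255 did not pass. The values rest on 94 to 290 reads per library over a gene model of 602 bases, the shortest of the 10, so counting error is larger here than for the other tested members. Of the T cell markers Cd3e, Cd3d, Cd3g, Cd2 and Lck, none had a mean of 1 FPKM. The summed macrophage markers were higher in the same 3 libraries as Klf13 and Klf3, and their part in these values was not tested. Fam134b, Nfatc1 and Foxn2 were closest to Klf13 in pattern, at 0.0893, 0.0906 and 0.0957 log2 units.

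Klf3, a repressor that works through CtBP proteins and restrains fat cell formation, stood at 10.1, 13.4 and 11.1 FPKM with saline and 13.8, 14.5 and 19.3 FPKM with exosomes. The groups were apart by a small gap between saline 2 and exosome 1. The log2 difference was 0.42 (interval 0.04 to 0.80), with an adjusted p of 0.292, and it was 0.28 without exosome 3. Hes1, a Notch target, was closest to it in pattern at 0.0362 log2 units, followed by Ptpn12 (0.0627) and Elf4 (0.0667). Klf3 was also the member nearest to Klf13 (0.154), and Klf4 the member nearest to Klf3 (0.102).

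**Figure D5:**
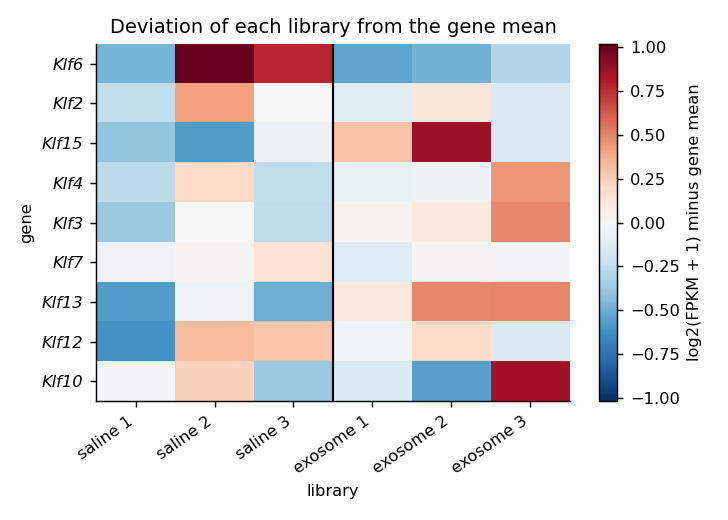
Deviation of each library from the gene mean on the log2(FPKM + 1) scale for the 9 tested members, red above and blue below, with a black line between saline and exosome libraries. Klf13 and Klf3 are blue or pale in saline and pale to red in exosome libraries, Klf6 is red in saline 2 and 3 alone, Klf15 is reddest in exosome 2 and Klf10 in exosome 3.

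Klf12, the other CtBP-dependent repressor here, stood at 2.77, 6.12 and 5.98 FPKM with saline and 4.57, 5.57 and 4.20 FPKM with exosomes. Saline 1 was lowest and all exosome libraries lay between it and the other saline libraries, with a log2 difference of 0.01 (interval -0.60 to 0.61) that was -0.29 without saline 1. Klf7, known in neurons and fat, was the steadiest member, at 9.996, 10.4 and 11.4 FPKM with saline and 9.26, 10.3 and 10.2 FPKM with exosomes. Its log2 difference was -0.09 with an interval of -0.35 to 0.17, the narrowest of the 9.

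Genes for the proteins through which these factors act showed small differences in RNA level. Of 10 cofactor genes 8 were higher and 2 lower, where 39.3% of all genes were higher. Their median log2 difference was 0.02, against -0.073 for all genes, and none passed. Crebbp, a histone acetyltransferase, had the smallest p, with a log2 difference of 0.22 (adjusted p = 0.367) and groups apart. Ctbp1, the corepressor of Klf3 and Klf12, differed by 0.05 and Ctbp2 by 0.01. Sin3a, the corepressor scaffold that Klf10 and Klf13 bind, differed by -0.23 (adjusted p = 0.588) and its paralog Sin3b by 0.18 (adjusted p = 0.390), the latter with groups apart.

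Elsewhere in the family, 16 other Krüppel-like and Sp genes were in the table and 7 were tested, of which 4 were higher, 3 lower and none past the adjusted threshold. Klf9, a glucocorticoid target that like Klf13 belongs to the Sin3-binding class, stood at 41.4, 51.9 and 47.1 FPKM with saline and 67.4, 65.5 and 78.4 FPKM with exosomes (log2 difference 0.58, adjusted p = 0.247), and its unadjusted p was smaller than that of Klf13 (0.0019 against 0.00527). Klf16, of the same class, stood at 5.85, 6.17 and 7.10 FPKM with saline and 7.69, 7.89 and 10.2 FPKM with exosomes (0.38, adjusted p = 0.292). Klf9 and Klf16 are compared here with the members of that class. Both had groups apart, while Klf11 of that class (-0.09) and Klf10, which also binds Sin3a (0.11), did not. They were 2 of the 7 tested, against 9.40% of all genes in the higher direction. Sp1, the widely expressed relative of the family, had a log2 difference of -0.24, Sp3 of 0.13 and Sp4 of -0.44, with overlapping groups. Klf17 and Sp8 were at 0 in all libraries, and Sp7 (osterix), the bone factor, stood at 0.0237, 0.429 and 0.749 FPKM with saline and 0.208, 0.170 and 0.268 FPKM with exosomes.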

How the data were processed

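Per the labels' protocols, libraries of 6 rat aorta samples were prepared with the SMARTER kit for mRNA-Seq. The authors deposited FPKM in 1 table, with columns named by sample title. The submitters' processing notes name DESeq2 1.28.1 without saying its role. Not given in the sources used here are the aligner, counting tool, strand setting, build and annotation, so overlapping or antisense genes could not be separated.

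Whole reads were recovered from the FPKM steps for 18430 genes (100.0% of those above 0, within 0.02 reads), up to a factor common to all libraries of a gene. No libraries were duplicates (chi-square of reads of at least 46.7 per gene for each pair). The test was limma 3.58.1 (R 4.3.3) on log2(FPKM + 1) with an intensity trend, two-sided, with Benjamini-Hochberg adjustment over the 11742 genes that averaged at least 1 FPKM. The scale understates changes of low genes. On simulated data the fit recovered 58 of 100 genes changed 2-fold and 100 of 100 changed 4-fold, and it called 20 unchanged genes. The simulated spread was set in advance and may differ from that of these libraries. Rescaling to the median of ratios moved the median log2 difference of all genes from -0.073 to -0.006 and the share of higher genes from 39.3% to 49.0%.

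Members and gene lists were chosen with earlier results of these data known. Named were all members and, per list, the best known genes and up to 3 of those with the smallest p. Likeness was the mean absolute difference of centred log2 values over 6 libraries. Not every listed gene is reported here. Listed symbols were matched directly or through GRCr8 synonyms. Alternatives covered pseudocounts, filters, scalings, moderation, library weights, a replicate block, left-out libraries, the threshold and voom on recovered reads. Python 3.11.15, pandas 2.3.3 and scipy 1.17.1 were used.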

Additional observations from a re-analysis of the deposited data

How the results depend on the processing

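Klf3, Klf4, Klf7 and Klf13 kept their direction and stayed short of the adjusted threshold under all 20 alternatives, with log2 differences of 0.24 to 0.52, 0.04 to 0.37, -0.18 to -0.02 and 0.46 to 0.89. With 1 library left out at a time, the difference ranged from -0.25 to 0.08 for Klf2, from -1.33 to -0.59 for Klf6, from -0.29 to 0.41 for Klf10, from -0.29 to 0.17 for Klf12 and from 0.41 to 0.92 for Klf15. In these fits 0 to 9 genes and 0 to 1 members passed, with 1 to 2 members higher and 0 to 1 lower at an unadjusted p under 0.05. The sign of Klf10 turned without saline 3 (-0.05) and that of Klf12 without exosome 2 (-0.09). With exosome 1 and 3 both left out, exosome 2 alone remained, and its spread was taken from the saline group. Klf2 was then 0.07, Klf10 -0.50 and Klf15 1.21 (0.68 with all libraries), 0 members were lower at an unadjusted p under 0.05, and 0 genes passed in limma (694 at an unadjusted p under 0.05). That count of lower members was also 0 with no filter on low values and after scaling by the median of ratios. With quantile normalization 2 genes passed. Library weights called 618 genes and turned Klf12 to -0.17. The default estimate of the weights, added after the data were seen, stopped before it converged. It called 3268 of the 11742 genes tested. Of the 9 tested members it called 2 in limma, Klf6 (-1.16, adjusted p = 0.0169) and Klf15 (0.60, adjusted p = 0.0317). It gave -0.02 for Klf10 and -0.17 for Klf12. Exosome 1 had a weight of 9.2 in this estimate, and the other libraries had 0.305 to 1.14. The cause of these changes was not tested. Same-numbered libraries did not deviate together over genes (correlations of 0.068, 0.096 and -0.165), and with the replicate number as a block Klf13 was 0.73 (adjusted p = 0.260), Klf6 -0.87 (0.300), and 1 gene and 0 members passed, as without it. Further denominators for Klf2 and Klf4 were added after the data were seen: against Kdr alone the difference was 0.28 for Klf2 and 0.61 for Klf4, and Klf4 was 0.30 against Egfl7 alone and 0.00 against the markers other than Pecam1 and Vwf. The counting error of the shallowest library was 1.28% to 10.3% for the tested members and 33.3% for Klf5, in each case below the coefficient of variation between replicates of either group.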

Other observations

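Partners of the family in fat cell formation were listed too. Of 4 such genes, Cebpd, a C/EBP factor induced early in adipogenesis and by glucocorticoids, stood at 19.6, 11.8 and 14.2 FPKM with saline and 25.6, 32.4 and 39.8 FPKM with exosomes (log2 difference 1.06, adjusted p = 0.237 in limma). Cebpb, the related early factor, stood at 36.3, 23.2 and 34.2 FPKM with saline and 47.1, 57.5 and 56.1 FPKM with exosomes (0.78, adjusted p = 0.255). Both had groups apart. The summed macrophage markers were apart in the same direction (62.9 to 72.5 FPKM with saline and 89.6 to 106.6 FPKM with exosomes), and their part in these values was not tested. Cebpa (-0.23) and Pparg (-0.05, with the sign turned by rescaling to the median of ratios and by quantile normalization), the later factors, overlapped and were highest in saline 2, the library with the highest sum of fat cell markers.

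Among 3 ubiquitin ligases known to act on Klf2 or Klf5 protein, Smurf1 stood at 17.8, 13.5 and 13.5 FPKM with saline and 21.7, 20.3 and 20.1 FPKM with exosomes (log2 difference 0.46, adjusted p = 0.261). Fbxw7 was 3.78 to 3.999 FPKM with saline and 2.88 to 3.603 FPKM with exosomes, and the Wwp1 groups overlapped. None of the 3 passed the adjusted threshold.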
